A study of Homo sapiens with 6 samples.

Results

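SKM-1, a human acute myeloid leukemia (AML) cell line, was compared with MOLM-14 and NOMO-1, AML lines that carry the MLL-AF9 (KMT2A-MLLT3) fusion gene as background knowledge has it; the labels do not give the fusion and gene-level counts cannot show it. Members were the 2 SKM-1 libraries and the 4 libraries of the other lines, which together are all 6 libraries of the series. Each line had 1 library after transfection with a short hairpin RNA (shRNA) against NCAM1, the neural cell adhesion molecule CD56, and 1 control library after a scrambled shRNA, both taken at 72 h. SKM-1 was thus represented by SKM-1 with the NCAM1 shRNA and SKM-1 with the control shRNA, and set against MOLM-14 and NOMO-1 with the same agents. The deposited column of the SKM-1 knockdown carries another hairpin suffix than the other knockdown columns, and no source used here says whether the hairpins differ. All are cultured lines, each from 1 leukemia as background knowledge has it. The libraries of a line carry the same line name, and whether they came from the same stock of cells is not given.

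Of 34114 genes, the 19575 with a mean of 10 or more normalized counts over the 6 libraries were tested, and 13781 of these were protein-coding. A normalized count is the number of reads of a gene divided by 1 size factor per library, so levels can be set side by side between libraries but not between genes of different length.

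MLL fusion proteins bind chromatin through the MLL part and recruit elongation factors through the partner. They are known for keeping the late HOXA genes and the HOX cofactor MEIS1 active, which in normal blood formation are turned off as progenitors mature. MOLM-14 and NOMO-1 are used as models of that program, and SKM-1 as an AML line with monocytic traits and no such fusion.

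Libraries held 41916991 to 47688779 gene-assigned reads, and mitochondrially encoded genes took 6.33% to 9.35% of them. The leukocyte antigen gene PTPRC (CD45) had 23654 normalized counts in SKM-1 with the NCAM1 shRNA and 19563 in its control library, against 14053 to 22183 in MOLM-14 and NOMO-1. The myeloid antigen gene CD33 had 1764 and 3136 in these SKM-1 libraries, against 2230 to 3837 in the other lines. CD14, a defining monocyte marker, was at 27.4 or less in every library. NCAM1, the targeted gene, had 101 normalized counts in SKM-1 with the NCAM1 shRNA and 12537 in its control library. It had 1896 and 6004 in those libraries of MOLM-14, and 312 and 1163 in those of NOMO-1.

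The SKM-1 libraries stood far apart from each other. Of 13510 genes at 100 or more normalized counts in either SKM-1 library, 28.81% differed at least 2-fold between them, 1884 being higher and 2008 lower with the NCAM1 shRNA. The same share was 2.156% between the MOLM-14 libraries and 7.712% between the NOMO-1 libraries. Between lines it was 30.79% for the SKM-1 control library against that of MOLM-14, 31.75% against that of NOMO-1, and 29.01% between the MOLM-14 and NOMO-1 control libraries. With the NCAM1 shRNA it was 39.57% for SKM-1 against MOLM-14 and 35.36% against NOMO-1. Results are therefore given over all libraries and again in the control libraries alone, which leave out the SKM-1 library with the NCAM1 shRNA.

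The question put to the data was which genes set SKM-1 apart from both other lines in either shRNA condition. With the shRNA as a term, 227 genes (1.16% of those tested) were called higher and 325 (1.66%) lower in SKM-1, where a call is an adjusted p under 0.05 in limma with at least a 2-fold difference. Of the higher ones, 191 differed at least 16-fold, and 121 had at most 3 reads in each MOLM-14 and NOMO-1 library. Of the lower ones, 231 differed at least 16-fold, and 116 had at most 3 reads in each SKM-1 library. Median log2 differences were 6.51 over the higher and -5.15 over the lower genes, beside 0.02 over all tested genes.

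All 552 called genes held in the control libraries alone, but these libraries also went into the calls, so the count is no independent support. To hold means that the SKM-1 control library was at least 2-fold above both other control libraries or at least 2-fold below both. By this rule of size, which is a description and no test, 1632 genes (8.34%) lay above and 2081 (10.6%) below both. In every library of SKM-1 against every library of the other lines, 744 genes (3.8%) lay at least 2-fold above and 934 (4.77%) at least 2-fold below, 546 of the called genes among them. Of the control differences, 881 of 1632 higher and 1089 of 2081 lower genes also held between the NCAM1 shRNA libraries.

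These calls rest on 1 line against 2, where a permutation of lines cannot give a one-sided p under 0.333, and limma called 0 genes with the line as the unit (1350 at an unadjusted p under 0.05) or in the 3 control libraries alone (1362). Leaving out any 1 library left at most 61 genes higher and 95 lower, leaving out either SKM-1 library left 0, and edgeR called 97 genes, 95 of them shared with limma.

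**Figure D1:**
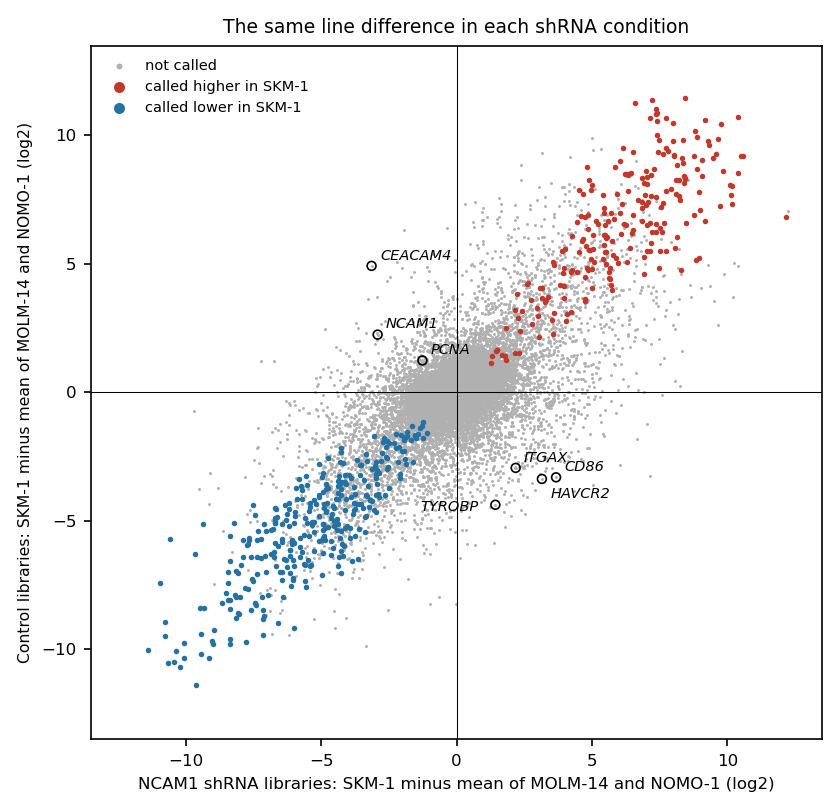
Each point is 1 tested gene, placed by its log2 difference of SKM-1 from the mean of MOLM-14 and NOMO-1 in the NCAM1 shRNA libraries (horizontal axis) and in the control libraries (vertical axis). Called genes (227 red, higher in SKM-1; 325 blue, lower) lie in the corners where both differences have the same sign, while in the 7 circled genes SKM-1 was above both other lines in 1 condition and below both in the other.

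The genes with the largest positive differences were active in both SKM-1 libraries and close to silent in the other lines. CDKN2A, which encodes the cell cycle inhibitor p16 and, from another reading frame, ARF, had 1843 normalized counts in SKM-1 with the NCAM1 shRNA and 5133 in its control library. MOLM-14 had 0 and 2.23 and NOMO-1 0.912 and 1.89 in their NCAM1 shRNA and control libraries, so the groups did not overlap. The log2 difference was 10.55 (SE 0.547, adjusted p = 0.00616). Pooled over libraries the ratio was 2730.2, with a 95% interval of 1169 to 8411 that covers counting error only.

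MGMT encodes the methyltransferase that removes alkyl groups from guanine in DNA. It had 864 normalized counts in SKM-1 with the NCAM1 shRNA and 1593 in its control library, against 0 and 2.23 in the NCAM1 shRNA and control libraries of MOLM-14 and 0.912 and 0 in those of NOMO-1. Both SKM-1 libraries were high and the other 4 held 3 reads or fewer each (log2 difference 9.54, SE 0.75, adjusted p = 0.0127).

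Several of the genes named for their size encode matrix or adhesion proteins, and no test of that group was made. SPARC, a matrix glycoprotein, had 2906 normalized counts in SKM-1 with the NCAM1 shRNA and 12617 in its control library, against 7.31 and 1.12 in the NCAM1 shRNA and control libraries of MOLM-14 and 7.3 and 8.5 in those of NOMO-1 (log2 difference 9.96, SE 0.967, adjusted p = 0.0164). NID1, a basement membrane protein, had 1889.5 in SKM-1 with the NCAM1 shRNA and 13128 in its control library, against 4.72 to 10 in MOLM-14 and NOMO-1. Both were higher in the SKM-1 control library than in its NCAM1 shRNA library, and neither overlapped with the other lines. PLOD2, which hydroxylates collagen lysines, had 2379.8 and 3622 in SKM-1 with the NCAM1 and the control shRNA, against 0 to 5.67 in the other lines. CDH2, N-cadherin, had 813 and 1298 in these SKM-1 libraries, while MOLM-14 and NOMO-1 held 1 read in all. EPCAM, an epithelial adhesion molecule, had 1203 and 549 in them, against 0 to 1.82 in the other lines.

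Other genes of the 15 largest positive differences spanned several roles. The scaffold gene MPDZ had 2842 and 1189.8 normalized counts in SKM-1 with the NCAM1 and the control shRNA, against 0 to 2.74 in the other lines. CYB5A, the electron carrier cytochrome b5, had 447 and 1151 in these SKM-1 libraries and 0 reads in the other 4, so it was at least 265-fold higher, with the floor set at 3 reads per library. GABRE, a subunit of the GABA receptor, had 7758 and 271 in them, against 0 to 4.72 in the other lines. Its SKM-1 libraries differed most among these genes, and its adjusted p was 0.0488. The others were the glutathione transferase GSTM3, the lysine catabolism enzyme AASS, the glycosyltransferase B3GALNT1, the WNT cofactor PYGO1, LDOC1 and CHIC1, with adjusted p values of 0.00747 to 0.0162.

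Next to SPARC and NID1, given above, the called higher genes of highest level were DERL1, GALNT2 and ST14, which differed less than those. DERL1, a channel component of endoplasmic reticulum protein disposal, had 9311 normalized counts in SKM-1 with the NCAM1 shRNA and 8557 in its control library, against 3775 to 3968 in the other lines. The glycosyltransferase gene GALNT2 (7215 and 5770.2, against 1963 to 2451) and the membrane protease gene ST14 (5360 and 6482, against 2097 to 2569) were likewise higher in SKM-1. These 3 had log2 differences of 1.21, 1.56 and 1.35, and the groups did not overlap.

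**Figure D2:**
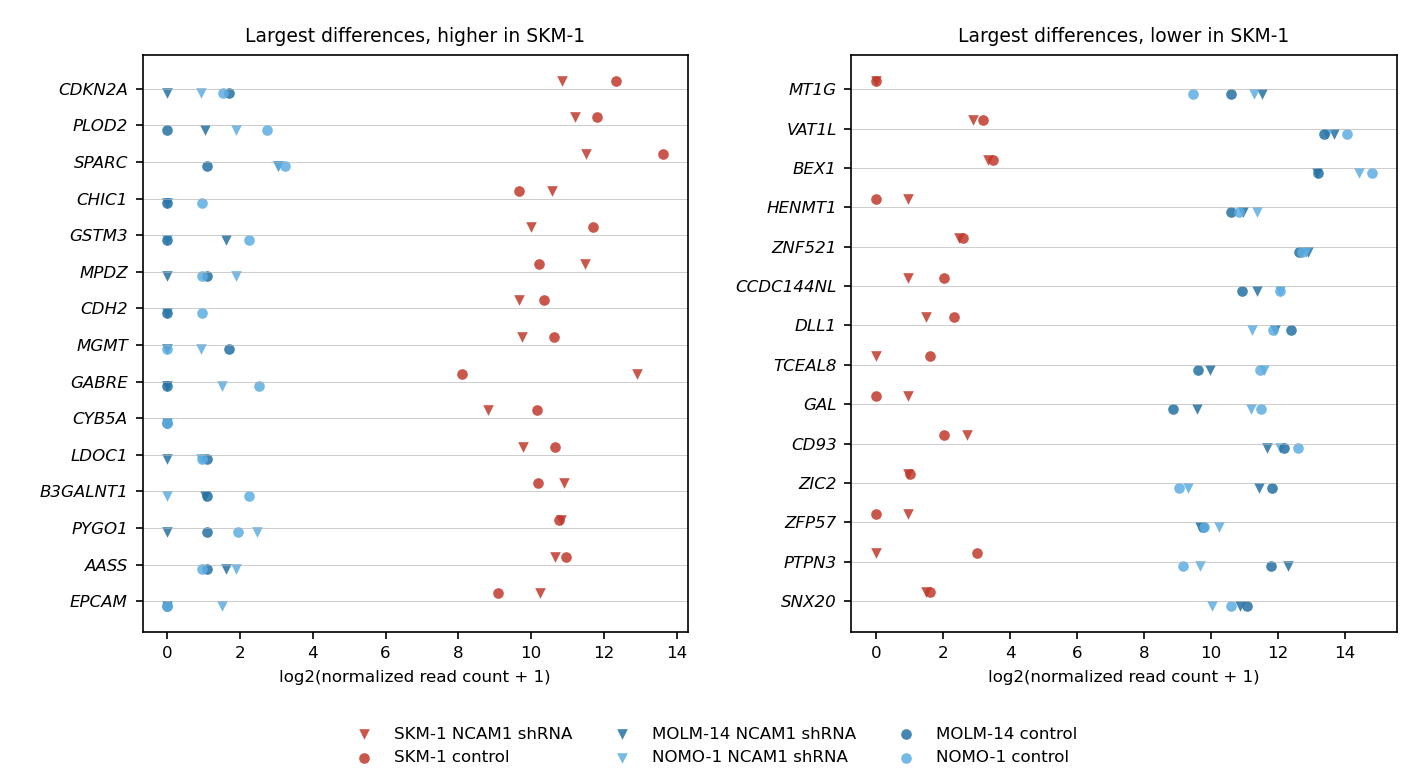
Normalized counts on the log2(count + 1) scale in each of the 6 libraries, for the named genes among the 15 called with the largest difference in each direction; red marks SKM-1, blue MOLM-14 and NOMO-1, triangles the NCAM1 shRNA and circles the control shRNA. In every row the SKM-1 points stand clear of the other lines, and GABRE shows the widest spread within SKM-1, with 7758 and 271 normalized counts.

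The genes with the largest negative differences were close to silent in SKM-1 and well expressed in both other lines. VAT1L, a membrane protein of the quinone oxidoreductase family, had 6.43 normalized counts in SKM-1 with the NCAM1 shRNA and 8.13 in its control library, against 13055 and 10672 in the NCAM1 shRNA and control libraries of MOLM-14 and 11200 and 16859 in those of NOMO-1. All 4 of these were high, and VAT1L had, with ZNF521, the smallest adjusted p of the named genes (log2 difference -10.60, SE 0.283, adjusted p = 0.0018). ZNF521, a zinc finger cofactor of immature blood cells, had 4.59 and 5.08 in SKM-1 with the NCAM1 and the control shRNA, against 6282 to 7630 in the other lines. BEX1, an adaptor protein first known from brain, had 9.18 and 10.2 in these SKM-1 libraries, against 9241 to 28385. DLL1, a Notch ligand, had 1.84 and 4.06 in them, against 2398 to 5290.4.

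Further genes of the 15 largest negative differences had surface or signaling roles. CD93, a lectin-like receptor of myeloid progenitors and endothelium, had 5.51 and 3.05 normalized counts in SKM-1 with the NCAM1 and the control shRNA, against 3259 to 6163 in the other lines. The metallothionein gene MT1G had 0 reads in both SKM-1 libraries, against 696 to 2956 in the other lines (at least 659-fold lower), but its counts are uncertain because metallothioneins are near-identical. ZIC2, a neural zinc finger factor, had 0.918 and 1.02 in these SKM-1 libraries, against 2766 and 3576 in the NCAM1 shRNA and control libraries of MOLM-14 and 636 and 525 in those of NOMO-1. It was lowest in SKM-1, and its MOLM-14 libraries stood above those of NOMO-1. The neuropeptide gene GAL, the piRNA methyltransferase gene HENMT1, the imprinting factor gene ZFP57, the phosphatase gene PTPN3, the sorting nexin gene SNX20, TCEAL8 and CCDC144NL were also among these 15.

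Next to BEX1, given above, the called lower genes of highest level described here differed less than it did. HMGCS1, an early enzyme of cholesterol synthesis, had 1891 normalized counts in SKM-1 with the NCAM1 shRNA and 2221 in its control library, against 10881 and 37988 in the NCAM1 shRNA and control libraries of MOLM-14 and 22251 and 74621 in those of NOMO-1. SKM-1 was lowest, and within each other line the NCAM1 shRNA library was lower than its control (log2 difference -3.81, SE 0.538, adjusted p = 0.0369). The threonyl-tRNA synthetase gene TARS had 6257 and 6589 in SKM-1 with the NCAM1 and the control shRNA, against 20319 to 24078 in the other lines. NCKAP1L, an actin regulator of blood cells, had 7467 and 6836 in these SKM-1 libraries, against 17180 to 25665.

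The 250 bases before the transcription start are shown for 4 called genes with large differences, to let the CpG content of their promoters be seen beside the values above. They are from RefSeq, build GRCh38.p14, on the strand of the gene and 5′ to 3′, and capitals mark every CG dinucleotide, the motif searched, which reads the same on both strands. MGMT is at chr10:129466991-129467240 (plus strand), SPARC at chr5:151686916-151687165 (minus strand), VAT1L at chr16:77788314-77788563 (plus strand) and MEIS1 at chr2:66434875-66435124 (plus strand).
MGMT promoter: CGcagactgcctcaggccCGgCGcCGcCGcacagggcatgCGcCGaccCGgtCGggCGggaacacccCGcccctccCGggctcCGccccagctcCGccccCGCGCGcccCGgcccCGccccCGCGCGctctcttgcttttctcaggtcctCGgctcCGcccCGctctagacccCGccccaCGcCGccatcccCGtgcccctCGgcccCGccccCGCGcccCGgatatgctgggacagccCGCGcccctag
SPARC promoter: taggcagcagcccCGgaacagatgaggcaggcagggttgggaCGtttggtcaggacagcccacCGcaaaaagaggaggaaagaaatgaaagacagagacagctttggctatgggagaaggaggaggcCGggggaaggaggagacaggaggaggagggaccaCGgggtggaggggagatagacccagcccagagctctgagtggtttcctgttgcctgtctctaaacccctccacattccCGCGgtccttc
VAT1L promoter: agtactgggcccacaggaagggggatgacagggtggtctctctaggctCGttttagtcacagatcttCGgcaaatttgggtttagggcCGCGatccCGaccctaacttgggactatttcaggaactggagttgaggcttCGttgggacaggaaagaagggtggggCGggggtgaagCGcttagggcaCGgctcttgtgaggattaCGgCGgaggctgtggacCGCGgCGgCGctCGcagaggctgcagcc
MEIS1 promoter: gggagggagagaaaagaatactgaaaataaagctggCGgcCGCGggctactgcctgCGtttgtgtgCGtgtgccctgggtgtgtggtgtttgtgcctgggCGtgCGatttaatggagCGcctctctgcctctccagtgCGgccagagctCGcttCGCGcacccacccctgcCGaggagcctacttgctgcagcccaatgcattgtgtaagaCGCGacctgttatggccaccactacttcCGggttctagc
The MGMT window held 36 CG and was 80.4% G or C, and 4.73% of the 27305 promoters in the table held as many. SPARC had 7 CG in this window, and 58.4% of promoters held as many. VAT1L and MEIS1 had 16 CG each, which 40.8% of promoters reached. At least 1 CG was present in 93.6% of all windows and the median was 11. Methylation was not measured, and a check over all called genes would be void, since only 158 of the 227 higher and 166 of the 325 lower genes have a window in the table.

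Among 30 tested HOXA genes and known targets of MLL fusions, 0 were called higher and 3 lower in SKM-1, MEIS1, HOXA3 and HOXA6, while HOXA9 and HOXA10 were not called. Calls over all tested genes were 1.16% higher and 1.66% lower, and the median log2 difference of the list was -1.65. In the control libraries alone 15 members were at least 2-fold below both other lines and 1 above both, with a median of -1.69. Over all tested genes 10.6% and 8.34% met these rules. In the NCAM1 shRNA libraries the list's median was -0.94.

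MEIS1, the DNA-binding partner of HOX proteins, had 11.9 normalized counts in SKM-1 with the NCAM1 shRNA and 121 in its control library, against 3218 and 3047 in the NCAM1 shRNA and control libraries of MOLM-14 and 1715 and 2176 in those of NOMO-1. Both SKM-1 libraries were far below all others, and the control library was the higher of them (log2 difference -5.95, SE 0.775, adjusted p = 0.0309). HOXA3 had 13.8 and 44.7 in SKM-1 with the NCAM1 and the control shRNA, against 532 to 723 in the other lines. HOXA6 had 18.4 and 26.4 in these SKM-1 libraries, against 157 to 272. Both transcription factor genes were called lower, with adjusted p values of 0.0226 and 0.0348.

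HOXA9, the member most often read as the output of the fusion, was at 2600 in SKM-1 with the NCAM1 shRNA and 2968 in its control library, against 2425 to 4449 in the other lines, so the groups overlapped (adjusted p = 0.574). HOXA10 overlapped as well, with 1265 and 1518 in these SKM-1 libraries, against 1097 to 3356. PBX3, another HOX partner, had 1211 and 1296 in them, against 3530 to 8758, and missed the threshold (adjusted p = 0.0791). CDK6, a kinase of the early cell cycle, had 3063 and 6853 in SKM-1 with the NCAM1 and the control shRNA, against 19908 to 31502, and also missed it narrowly (log2 difference -2.49, adjusted p = 0.0527).

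HOXA13 and FLT3 varied between the other lines and were not called. HOXA13 had 69.8 and 655 normalized counts in SKM-1 with the NCAM1 and the control shRNA, 3928 and 3294 in those libraries of MOLM-14 and 0.912 and 0.945 in those of NOMO-1. FLT3, a receptor kinase, had 294 and 2580 in these SKM-1 libraries, 28123 and 39095 in those of MOLM-14 and 1348 and 2787 in those of NOMO-1. HOXA13 in SKM-1 lay between the lines in both conditions, and FLT3 in SKM-1 was close to NOMO-1 with the control shRNA and below both lines with the NCAM1 shRNA.

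Outside the HOXA cluster, HOXC6 was called lower (1.84 and 2.03 normalized counts in SKM-1 with the NCAM1 and the control shRNA, against 64.8 to 199 in the other lines), as 1 of 10 tested HOXB, HOXC and HOXD genes. HOXB7 had 5.51 and 154 in these SKM-1 libraries and 0 reads in the other 4. HOXB6 had 0.918 and 104 in them, again with 0 reads in the other 4. These HOXB genes were well measured in the SKM-1 control library but not in the SKM-1 NCAM1 shRNA library, and they did not pass the test (adjusted p = 0.127 and 0.265).

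Stem and progenitor genes gave 0 calls higher and 3 lower among 16 tested, beside 1.16% and 1.66% of all tested genes. Their median log2 difference was -0.77, but -1.85 without MOLM-14 and 0.26 without NOMO-1. In the control libraries 3 members were at least 2-fold above both other lines and 6 below both, beside 8.34% and 10.6% of all tested genes. NPR3, a natriuretic peptide receptor found in stem cell signatures, had 4.59 and 21.3 normalized counts in SKM-1 with the NCAM1 and the control shRNA, against 333 to 755 in the other lines. ANGPT1, a ligand of the receptor TIE2, had 10.1 and 26.4 in these SKM-1 libraries, against 621 to 3311. BMI1, a Polycomb protein that sustains self-renewal, had 758 and 1911 in them, against 8143 to 16146. All 3 were lower in each SKM-1 library than in any other. MECOM, a stem cell transcription factor, had 206 and 12.2 in SKM-1 with the NCAM1 and the control shRNA, against 0 to 1.89, and was not called (adjusted p = 0.126).

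Of 14 tested genes of a leukemia stem cell score, 1 was called higher and 1 lower (median -0.73). SOCS2, a feedback inhibitor of cytokine signaling, had 68.9 and 16.3 normalized counts in SKM-1 with the NCAM1 and the control shRNA, against 4503 to 15970 in the other lines. NGFRAP1 (also BEX3), an adaptor of the neurotrophin receptor, had 844 and 371 in these SKM-1 libraries, against 0.945 to 6.26. The relatives of NGFRAP1 went different ways. Of 24 tested BEX, TCEAL and imprinted genes 2 were called higher, NGFRAP1 and TCEAL3, and 2 lower, BEX1 and TCEAL8. BEX and TCEAL genes lie near each other on the X chromosome. TCEAL3 had 216 and 404 in SKM-1 with the NCAM1 and the control shRNA, against 3.35 to 10, while TCEAL8 had 0 and 2.03 in them, against 779.5 to 3056.

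Myeloid transcription factors showed 1 call among 28 tested (median -0.08). IRF5, an interferon regulatory factor of macrophages, had 149 and 57.9 normalized counts in SKM-1 with the NCAM1 and the control shRNA, against 1377 to 1725 in the other lines (log2 difference -4.07, SE 0.406, adjusted p = 0.0169). IRF8, a factor of monocyte and dendritic cell fate, had 111 and 2005 in these SKM-1 libraries, against 6601 to 36219. Though IRF8 did not overlap between the groups, its SKM-1 libraries lay far apart and it was not called (adjusted p = 0.116).

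Monocyte and macrophage markers gave 0 calls higher and 1 lower among 32 tested. Fitted log2 differences were positive in 17 members and negative in 15, with a median of 0.15 and a highest value of 6.49. In the control libraries 3 members were at least 2-fold above both other lines and 12 below both, beside 8.34% and 10.6% of all tested genes. MS4A7, a membrane protein of mature macrophages, had 47.7 and 255 normalized counts in SKM-1 with the NCAM1 and the control shRNA, against 2436 to 5046 in the other lines (log2 difference -5.03, adjusted p = 0.0151). MS4A6A, its neighbor in the gene family, had 286 and 365 in these SKM-1 libraries, against 1410.3 to 4614, with an adjusted p of 0.0543. The list as a whole depended on the condition, with a median of 1.57 between the NCAM1 shRNA libraries and -0.81 between the control libraries. Its summed normalized counts were 104684 in SKM-1 with the NCAM1 shRNA and 26448 in its control library, against 31355 to 75668 in the other lines, so the SKM-1 libraries were the highest and the lowest of all 6. Here as elsewhere in bulk libraries, fewer cells of a kind and less RNA per cell cannot be told apart.

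Of 15 tested MHC class II genes, which serve to present antigen to T cells, 0 were called higher and 1 lower, with a median log2 difference of -3.56. In the control libraries 11 were at least 2-fold below both other lines and 0 above both, beside 10.6% and 8.34% of all tested genes. HLA-DQB1 was the called one, with 6.43 and 7.11 normalized counts in SKM-1 with the NCAM1 and the control shRNA, against 86.9 to 299.6 in the other lines (adjusted p = 0.0318). CIITA, the transcriptional switch of these genes, had 56.9 and 140.22 in these SKM-1 libraries, against 345 to 1621, and was not called (adjusted p = 0.133). HLA-DMA had 84.5 and 43.7 in them, against 226 to 421 (adjusted p = 0.0732). HLA genes are similar to each other and differ between people, so their counts are uncertain. MHC class I and antigen processing genes had 0 calls among 19 tested and a median of 0.06.

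Chemokine receptors and trafficking genes held the most calls of any list in 1 direction, together with the semaphorin list. Of 20 tested, 4 were called lower and 0 higher, beside 1.66% and 1.16% of all tested genes. The list's median log2 difference was -1.90. S1PR3, a receptor for sphingosine 1-phosphate, had 7.34 and 12.2 normalized counts in SKM-1 with the NCAM1 and the control shRNA, against 621 to 2151 in the other lines (log2 difference -6.72, SE 0.381, adjusted p = 0.00747). CCR1, a receptor of inflammatory chemokines, had 123 and 73.2 in these SKM-1 libraries, against 1026 to 2555. CCR3, an eosinophil receptor, had 1.84 and 2.03 in them, against 30.2 to 54.7. All 3 were lower in each SKM-1 library than in any other. In the control libraries 12 of the 20 lay at least 2-fold below both other lines, and 1 above both, beside 10.6% and 8.34% of all tested genes.

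Semaphorins, plexins, ephrins and other guidance genes changed in both directions, with 1 called higher and 4 lower of 34 tested (median -0.18). Over all tested genes these shares were 1.16% and 1.66%. The semaphorin and VEGF co-receptor gene NRP2 had 1767 and 3068 normalized counts in SKM-1 with the NCAM1 and the control shRNA, against 17.9 to 42.4 in the other lines (log2 difference 6.28, SE 0.519, adjusted p = 0.0133). PLXNC1, the receptor of semaphorin 7A, had 70.7 and 132 in these SKM-1 libraries, against 2094 to 3688 (log2 difference -4.70, SE 0.281, adjusted p = 0.0078). The netrin receptor UNC5B had 2.75 and 3.05 in them, against 157 to 585. SEMA4A had 253 and 161, against 1298 to 2248, and ROBO3 was the other called lower.

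In the Notch pathway a receptor was higher and a ligand and a target lower in SKM-1. NOTCH3 had 3060.1 normalized counts in SKM-1 with the NCAM1 shRNA and 1935 in its control library, against 1.04 and 1.12 in the NCAM1 shRNA and control libraries of MOLM-14 and 14.6 and 14.2 in those of NOMO-1 (log2 difference 8.75, SE 1.19, adjusted p = 0.0344). HES1, a transcriptional repressor that Notch signaling turns on, had 0.918 and 0 in SKM-1 with the NCAM1 and the control shRNA, against 43.8 to 330.09 in the other lines, and DLL1 is given above. These were the only calls among 39 tested WNT, Notch and TGF-beta pathway genes, whose median was -0.07. INHBA, an activin subunit, had 1.84 and 1.02 in these SKM-1 libraries, against 57.5 to 2208, and missed the threshold (adjusted p = 0.0559).

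Cell cycle regulators gave 1 call higher, CDKN2A, and 2 lower among 33 tested, with a median log2 difference of -0.01. CCND1, cyclin D1, had 7.34 and 4.06 normalized counts in SKM-1 with the NCAM1 and the control shRNA, against 332 to 1667 in the other lines (log2 difference -6.82, adjusted p = 0.0218). CDKN2C, an inhibitor of the same kinases as p16, had 3190.5 and 2425 in these SKM-1 libraries, against 5363 to 7806. CCNE1, cyclin E1, had 2238 and 2116 in them, against 312 to 661, and missed the threshold (adjusted p = 0.0507). The list of p53 targets held 1 call among 26 tested (median -0.19), again CDKN2A, which is no established target of p53. Of 19 BCL2 family genes 0 were called (median -0.16). Of 24 MAP kinase outputs 2 were called lower, CCND1 and the phosphatase gene DUSP6, which had 1104 and 1414 in SKM-1 with the NCAM1 and the control shRNA, against 2904 to 4966.

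Glutathione transferase genes were the 2 calls, both higher, among 32 drug handling genes (median 0.15). GSTM3 had 1014 and 3360.1 normalized counts in SKM-1 with the NCAM1 and the control shRNA, against 0 to 3.78 in the other lines. GSTT1 had 342 and 283 in these SKM-1 libraries and 0 reads in the other 4, so it was at least 104-fold higher in SKM-1. Both enzymes conjugate glutathione to foreign compounds.

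Cholesterol genes held 1 call higher and 2 lower among 28 tested (median -0.48). Besides HMGCS1, the mevalonate kinase gene MVK was lower, with 499 and 709 normalized counts in SKM-1 with the NCAM1 and the control shRNA, against 1322 to 2638 in the other lines. ABCG1, a cholesterol exporter, was higher, with 57.8 and 445 in these SKM-1 libraries, against 0 to 1.12.

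Interferon response genes had 0 calls higher and 2 lower among 33 tested (median -0.56). XAF1, a proapoptotic interferon target, had 10.1 and 109 normalized counts in SKM-1 with the NCAM1 and the control shRNA, against 2482 to 4418 in the other lines. OAS2, a sensor of double-stranded RNA, had 0.918 and 5.08 in these SKM-1 libraries, against 149 to 1019. MX1, an antiviral GTPase, stood the other way, with 436 and 220.49 in them, against 24.5 to 70.2, and was not called (adjusted p = 0.0887).

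Markers of other lineages varied widely in level. The erythroid list summed to 15458 and 60635 normalized counts in SKM-1 with the NCAM1 and the control shRNA, against 26815 to 52242 in the other lines. Of 19 tested T and NK cell markers 2 were called lower, the granzyme gene GZMH (0 reads in SKM-1 and 16.7 to 91.2 normalized counts in the other lines, at least 16-fold lower) and IL2RB (3.67 and 1.02 in SKM-1 with the NCAM1 and the control shRNA, against 61.1 to 211). Their list's summed normalized counts were 2812 and 9634 in these SKM-1 libraries, against 6246 to 8326 in the other lines, and 6 of its genes had 0 reads in both SKM-1 libraries. Of 21 B lineage markers 3 were called lower, the transcription factor AFF3 (122 and 609.64, against 3696 to 6334), FCRLA and BLNK, and their list summed to 11825 and 16414 in these SKM-1 libraries, against 19500.3 to 28058. Of 13 mast cell, basophil and eosinophil markers CCR3 was the 1 call, and of 8 epithelial and stromal markers EPCAM was called higher and KRT18, a keratin, lower (0.918 and 0, against 236 to 673). Erythroid, megakaryocyte and dendritic cell markers had 0 calls among 12, 10 and 11 tested. The part of other cell types in the differences above was not tested.

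Single calls stood in several more lists. The cohesin subunit gene STAG2 was the 1 call among 32 epigenetic regulators, with 1483 normalized counts in SKM-1 with the NCAM1 shRNA and 974 in its control library, against 10882 to 12121 in the other lines (log2 difference -3.24, SE 0.227, adjusted p = 0.00952). The other lines lay close together and SKM-1 far below them. CNTN1 (43.2 and 385 in SKM-1 with the NCAM1 and the control shRNA, against 0 to 1.12) was called higher and L1CAM (0.918 and 2.03, against 85.8 to 325) lower among 19 NCAM1 partners and neural adhesion genes. IL1R1 was called higher and TNFRSF4 lower among 33 cytokine and growth factor receptors, the integrin gene ITGA1 higher among 28 adhesion genes and the helicase gene DDX43 higher among 5 cancer-testis antigens. In all, 26 of the 39 lists had a call and 13 had 0. The counts of every list stand beside 1.16% called higher and 1.66% called lower over all tested genes. Among the 13 were 56 ribosomal protein genes with a median of -0.35, which was 0.045 without MOLM-14 and -0.68 without NOMO-1.

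**Figure D3:**
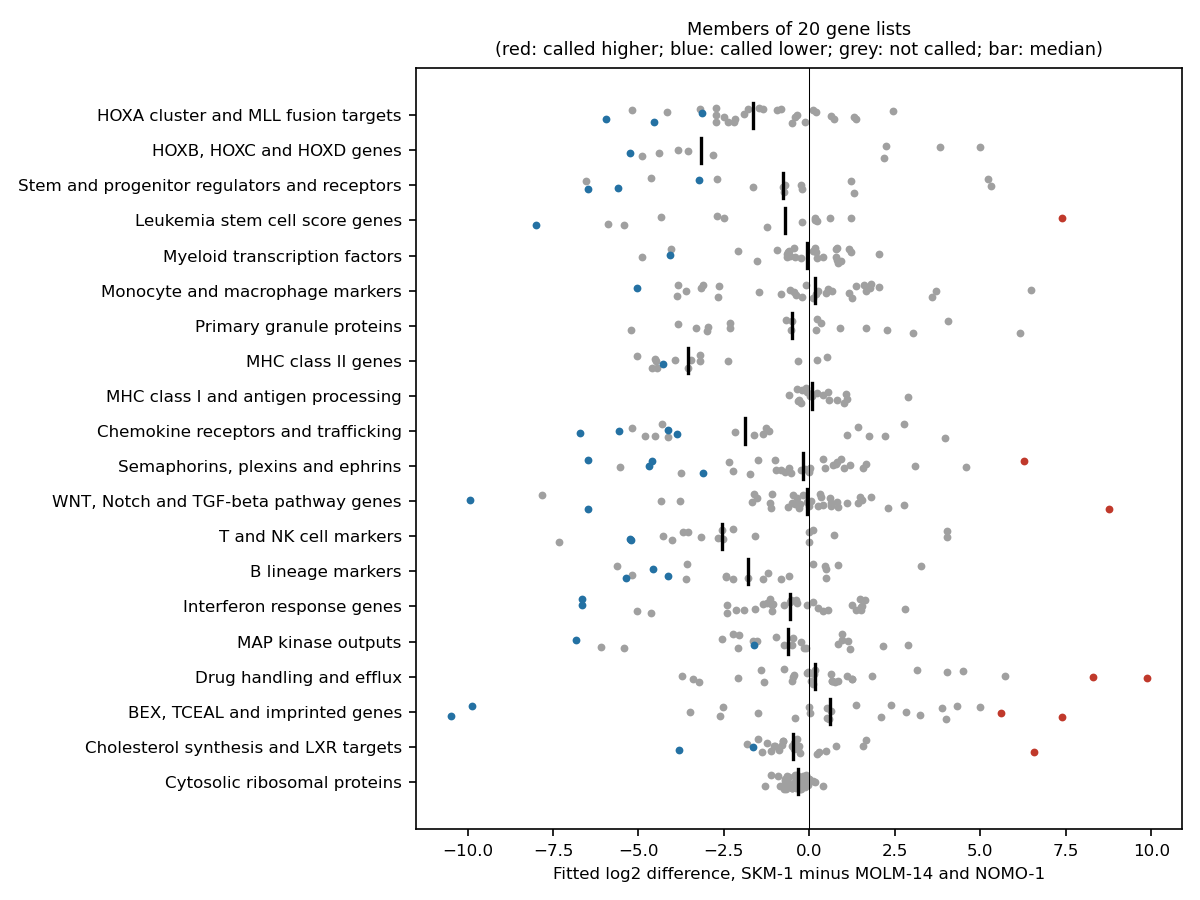
Each dot is 1 tested gene of 20 of the gene lists, placed by its fitted log2 difference, SKM-1 minus MOLM-14 and NOMO-1; red dots were called higher, blue lower, grey not called, and bars are list medians. MHC class II genes (median -3.56) and HOXA and MLL fusion target genes (-1.65) lie mostly left of 0, and ribosomal proteins form the narrowest group.

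Some lists lay on opposite sides of 0 in the 2 shRNA conditions. NF-kB subunits and targets had a median of 1.47 between the NCAM1 shRNA libraries and -1.17 between the control libraries, with 0 calls among 27 tested. Secondary granule and neutrophil markers had medians of 1.52 and -0.77 in these conditions, with 0 calls among 16, and sums of 339437 and 28254 normalized counts in these SKM-1 libraries, against 18192 to 98718 in the other lines. Primary granule proteins went the other way, at -1.26 with the NCAM1 shRNA and 1.21 with the control shRNA, with 0 calls among 19. MPO, myeloperoxidase, had 6166 normalized counts in SKM-1 with the NCAM1 shRNA and 728820 in its control library, against 3922 and 1398 in the NCAM1 shRNA and control libraries of MOLM-14 and 15869 and 53986 in those of NOMO-1. Only the SKM-1 control library stood above all others, so MPO is a difference of SKM-1 in the control libraries and not in both.

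**Figure D4:**
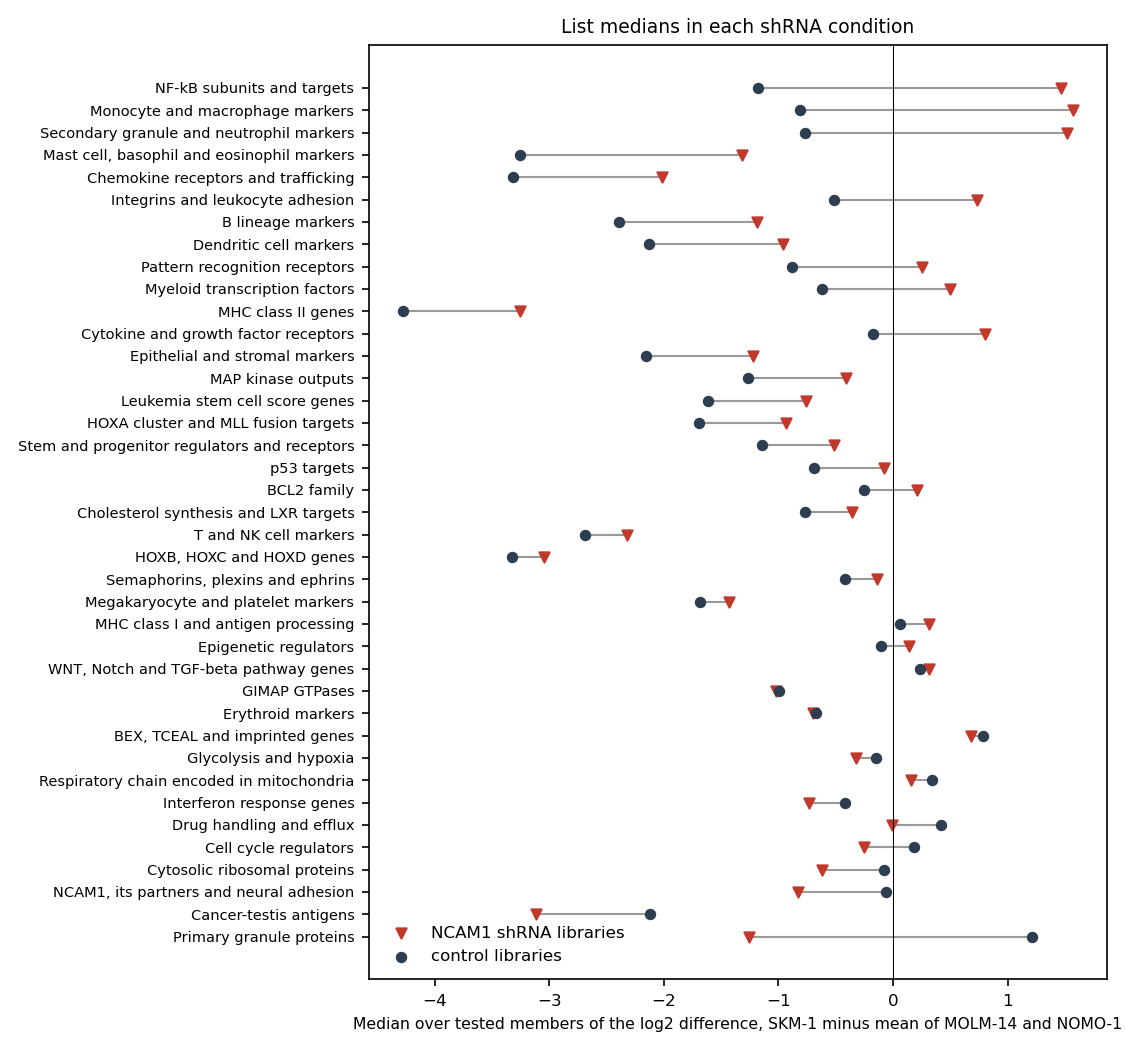
Median log2 difference, SKM-1 minus the mean of MOLM-14 and NOMO-1, over the tested members of each gene list, in the NCAM1 shRNA libraries (red triangles) and in the control libraries (dark circles). NF-kB, monocyte and neutrophil lists are positive with the NCAM1 shRNA and negative in the controls, primary granule proteins the reverse, and MHC class II genes are far below 0 in both.

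Not all differences of the control libraries held elsewhere. Of those, 751 higher and 992 lower genes were not at least 2-fold apart in the same direction with the NCAM1 shRNA, while 1286 higher and 1325 lower genes held with the NCAM1 shRNA and not in the controls. In 124 genes the sign turned, with at least a 2-fold difference from both other lines each way. At 100 or more normalized counts in a library, 61 of 84 such genes were higher in SKM-1 with the NCAM1 shRNA and lower in its control library. Of the called genes, 42.4% lay at least 2-fold apart between the SKM-1 libraries themselves. The same share was 16.3% between the MOLM-14 libraries and 16.5% between the NOMO-1 libraries.

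The turned genes named here were chosen after their values were seen, apart from NCAM1. CD86, a costimulatory ligand of monocytes, had 9816 normalized counts in SKM-1 with the NCAM1 shRNA and 52.8 in its control library, against 353 and 426 in the NCAM1 shRNA and control libraries of MOLM-14 and 1669.5 and 667 in those of NOMO-1. The SKM-1 NCAM1 shRNA library was the highest of all 6 and the SKM-1 control library the lowest. The integrin gene ITGAX (CD11c) had 16072 and 977 in SKM-1 with the NCAM1 and the control shRNA, against 3262 to 11454 in the other lines. HAVCR2 (TIM-3) had 633 and 11.2 in these SKM-1 libraries, against 30.3 to 233, and the adaptor gene TYROBP 3295 and 59.9, against 1190.1 to 1288. PCNA, the DNA polymerase clamp, went the other way with 4285 and 20941, against 7990.2 to 11678. CEACAM4 did so too, with 0.918 and 481, against 10.4 to 23. Adjusted p values of the line difference were 0.597 to 0.993 for these genes.

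Differences also ran along chromosomes, a view added after the values were seen. Over protein-coding genes at a mean of 100 or more, those of chromosome 12 had a lower median in SKM-1 in each pair of libraries. Their median log2 difference was -1.05 from MOLM-14 and -0.73 from NOMO-1 with the NCAM1 shRNA, and -0.91 and -0.44 in the control libraries. Of 623 genes there, 64.7% were below both other lines in the controls, beside 30.7% of all 11520. On chromosome 14 the share was 57%, and on chromosome 13 it was 44.1%. On chromosomes 15, 20, 18 and 21, and on X, 60.2% to 66.6% of genes were above both other control libraries, beside 38.7% of all. With the NCAM1 shRNA the medians on chromosome 20 were 0.13 from MOLM-14 and -0.03 from NOMO-1, and those on X were 0.29 and 0.08, against 0.55 and 0.47, and 0.64 and 0.35, in the control libraries. On chromosome 11, where 51.1% of genes were below both other control libraries, the medians were 0.30 and 0.18 with the NCAM1 shRNA, against -0.21 and -0.36 in the controls.

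Cut into 448 stretches of 25 neighboring genes, 15 stretches were lower and 4 higher by a median of at least 0.5 on the log2 scale in all 4 pairs of SKM-1 with another line. The longest run held 175 genes on chromosome 12, between TMBIM4 and TESC, of which 138 were below both other control libraries and 10 above both. Its medians were -1.30 from MOLM-14 and -0.84 from NOMO-1 with the NCAM1 shRNA, and -1.07 and -0.63 in the controls. In the stretches at the start of chromosome 12, from IQSEC3 to ARNTL2, SKM-1 was mostly above NOMO-1. Their medians from NOMO-1 were 0.27 to 0.68 in the controls and -0.07 to 0.51 with the NCAM1 shRNA. From MOLM-14 they were -0.68 to -0.15 in the controls and -1.06 to 0.28 with the NCAM1 shRNA. Other lower stretches lay on chromosomes 5 (CCDC127 to FAM173B, and DNAJC21 to ZNF131), 12 and 14 (TTC5 to SLC7A7). Higher ones were on chromosomes 9 (LURAP1L to IFT74), 15 (ATP8B4 to PRTG), 20 (NINL to PXMP4) and X (BEX1 to TMEM164). Some neighboring stretches depended on the condition. From C20orf96 to CSRP2BP on chromosome 20, medians from the other lines were -1.01 to -0.63 with the NCAM1 shRNA and 0.27 to 0.59 in the controls. They were -1.19 to -0.42 and -0.25 to 0.90 on chromosome 10 (ZMYND11 to YME1L1). On chromosome 19 (CLASRP to ZNF581) they were -1.42 to -0.51 and -0.22 to 0.31.

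The stretch on chromosome 9 holds CDKN2A and its neighbor MTAP, an enzyme of methionine salvage, which was looked up after the values were seen. MTAP had 2924 normalized counts in SKM-1 with the NCAM1 shRNA and 3282 in its control library, against 1233 and 1504 in the NCAM1 shRNA and control libraries of MOLM-14 and 4.56 and 3.78 in those of NOMO-1. It was near 0 in NOMO-1 alone, whereas CDKN2A was near 0 in both other lines. DNA copy number was not measured, and its part in these runs was not tested.

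**Figure D5:**
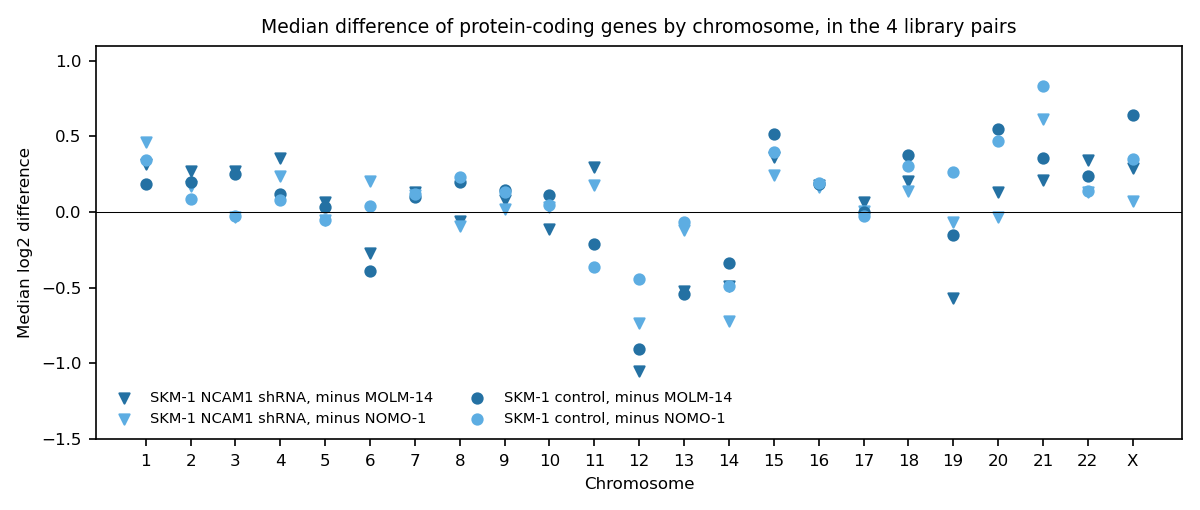
Median log2 difference of protein-coding genes by chromosome in the 4 pairs of an SKM-1 library with the library of another line under the same shRNA; dark blue marks MOLM-14, light blue NOMO-1, triangles the NCAM1 shRNA and circles the control shRNA. All 4 pairs are below 0 on chromosome 12, between -1.05 and -0.44, and on chromosomes 13 and 14.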

How the data were processed

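Libraries were made with a TruSeq RNA v2 kit and read as paired ends, as the labels and series text give it. The submitters' processing notes list, without settings, the tools STAR, HTSeq 0.6.1p1, DESeq2 1.12.4, bcl2fastq 1.8.4 and the genome build hg19. The deposited signal values are counts that the authors divided by a size factor per library, and the deposited log2 values are their own transformation of these. Strand and annotation settings are not given in the sources used, so overlapping genes may share reads. Whole reads were recovered for 100% of values (tolerance 0.001).

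Differences were tested two-sided by limma 3.58.1 (lmFit, then eBayes with its trend option; R 4.3.3) on log2(normalized count + 1), which understates differences of low genes. Line group and shRNA were terms, with 3 residual degrees of freedom and Benjamini-Hochberg adjustment over 19575 genes. Nothing says that libraries came from separate cultures, so p-values measure the spread between libraries only. Intervals are exact, at 95%, and a gene at 0 reads was set to 3 reads per library; both cover counting error only. edgeR 4.0.16 and DESeq2 1.42.0 ran on recovered reads. The main fit was tried on simulated reads of independent libraries, with no shRNA effect and no difference between MOLM-14 and NOMO-1. That trial cannot tell how the calls fare when libraries are nested in lines. Gene types and order came from GENCODE v29.

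The members, the 39 gene lists (1016 of 1083 entries found) and the tests were chosen with earlier results of these data known. Named were the 15 called genes per direction with the largest difference that held in the controls at a mean of 100 or more in the higher group, the 5 called per direction with the highest level, up to 4 per list by smallest p, and NCAM1. Other list members were chosen after their values were seen. Y-linked genes, X-inactivation transcripts, pseudogenes and genes with clone-type names were left out of the naming. Some genes that this rule would name are not reported here.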

Additional observations from a re-analysis of the deposited data

Results flagged for a closer look

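In groups of 4 libraries a value was marked when its gap to the nearest other library took most of the range (Dixon's test at 95%). Chance does this in about 1 of 20 groups of normally distributed values. Among the MOLM-14 and NOMO-1 libraries it marked SPARC at 1.12 normalized counts in MOLM-14 control, and CHIC1 and CDH2 at 0.945 each in NOMO-1 control. It also marked LDOC1 at 0 in MOLM-14 with the NCAM1 shRNA, EPCAM at 1.82 in NOMO-1 with the NCAM1 shRNA, MECOM at 1.89 in NOMO-1 control and ABCG1 at 0 in NOMO-1 control. All of these are 0 to 2 reads. At such counts ties alone can give a mark, and the groups join 2 lines, so that rate does not hold for them. At higher levels it marked KLF6 at 2096.5, CTSG at 4186 and LILRA4 at 29 normalized counts, each in MOLM-14 control.

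In 7 of the 188 named genes SKM-1 lay above both other lines in 1 condition and below both in the other. All of these but NCAM1 were chosen after their values were seen, so the count of 7 follows from that choice. Over all tested genes the sign turned in 124, by at least 2-fold each way. The difference between the conditions was not tested. On the log2 scale the difference of SKM-1 from the other lines was -2.92 with the NCAM1 shRNA and 2.25 with the control shRNA for NCAM1. For CEACAM4 it was -3.14 and 4.92. PCNA stood at -1.26 and 1.24 in these conditions. The other 4 genes had the reverse signs, with 1.43 and -4.38 for TYROBP, 3.67 and -3.31 for CD86, 3.15 and -3.37 for HAVCR2, and 2.18 and -2.94 for ITGAX.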

How the results depend on the processing

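Of the 188 named genes 82 were called, and none of these 82 turned its sign under any alternative. All called genes held at least 2-fold in each shRNA condition, so leaving out libraries could not turn a sign. Of the uncalled named genes 10 turned, among them the turned genes that were chosen after their values were seen. On the log2 scale NCAM1 was 0.054 with edgeR, 0.0573 with DESeq2, 2.25 in the control libraries alone and 0.91 without MOLM-14, and -2.92 to 2.25 with 1 library left out. PCNA was 0.0171 with quantile normalization, 0.14 with edgeR, 0.15 with DESeq2, 1.24 in the controls alone and 0.16 without NOMO-1, and -1.26 to 1.24 with 1 library left out. HAVCR2 was 0.091 with a pseudocount of 8, 0.12 on the authors' transformed values, 0.82 with edgeR, 0.84 with DESeq2, 3.15 in the NCAM1 shRNA libraries alone and 0.93 without NOMO-1, and -3.37 to 3.15 with 1 library left out. ITGAX was 0.41 with edgeR, 0.44 with DESeq2 and 2.18 in the NCAM1 shRNA libraries alone, and -2.94 to 2.18 with 1 library left out. TYROBP was 1.43 and CEACAM4 -3.14 in the NCAM1 shRNA libraries alone, and they were -4.38 to 1.43 and -3.14 to 4.92 with 1 library left out. In the controls alone CD86 was -3.31 and KLF6 -0.0704, and they were -3.31 to 3.67 and -0.0704 to 2.53 with 1 library left out; CD86 was -0.54 without MOLM-14. Without NOMO-1, SPTB was 0.0287 and GIMAP4 1.61, and GIMAP4 was -2.58 to 0.49 with 1 library left out. Against 227 genes higher and 325 lower, counts were 81 and 193 at a mean of 50 or more, 394 and 556 with no shRNA term, 34 and 77 with the line as a random block, and 1449 and 1602 with the line as a term. They were 56 and 41 with edgeR, 900 and 1442 with DESeq2, 767 and 1153 without the MOLM-14 libraries, and 369 and 307 without those of NOMO-1. The limma count was 0 in both directions with the line as the unit, in the control libraries alone (smallest adjusted p = 0.547) and in the NCAM1 shRNA libraries alone, where 1879 genes had an unadjusted p under 0.05. Leaving out 1 library at a time gave 0 to 61 higher and 0 to 95 lower; a side left with 1 library was assumed to vary like the rest. The causes were not tested. Other pseudocounts, scalings, no filter and other eBayes settings kept both counts within 1.5 times. Against 3713 genes that held in the controls, 6880 did with no filter, 2404 at a mean of 50 or more, 1767 at 4-fold and 13397 at any distance. No pairing by line was possible because each line lay wholly on 1 side of the comparison, and the labels carry no replicate numbers. The shRNA condition was a term of the fit, and the line as a random block, above, was the only block fitted. Of the limma calls, 541 were among the 2342 of DESeq2, 526 were kept without MOLM-14 and 287 without NOMO-1. With 1 library per line and condition, levels of 3 reads or fewer cannot be ordered.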
